A study of Mus musculus with 3 samples.

Results

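The proteasome subunits of mouse gastrocnemius muscle, the large calf muscle, are described here by their mRNA signals under 3 diets. Members were the genes whose symbol in the array annotation is Psma, Psmb, Psmc, Psmd or Psme followed by a number, which gave 42 of 18194 genes measured, carried by 88 of 45101 probe sets. Probe sets are groups of short probes against 1 transcript. For each gene the values are those of the brightest probe set, whose mean log2 signal over the arrays was the highest. Male C57BL/6J mice of the Control group ate a diet with 10% of its energy as fat, and those of the HF group one with 60%. In the HF+SFC group the diet of the HF group also held the iron salt sodium ferrous citrate, at 0.023% by weight. The diets began at 6 weeks of age and lasted 15 weeks, but an age of 21 months stands in the labels of the arrays. Each group was measured on 1 Affymetrix GeneChip array of a mix of all its samples, so that no difference could be set against a spread between replicates or tested. In a piece of whole muscle, fewer cells of a type and less RNA per cell cannot be told apart.

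The proteasome is the protease that degrades most proteins tagged with ubiquitin. Its barrel, the 20S core, is built of outer rings of alpha subunits, which gate the entrance, and inner rings of beta subunits, of which a few cut proteins. The 19S regulator caps the barrel, recognises the ubiquitin tag, removes it and threads the unfolded protein into the core. In cells exposed to interferon and in immune cells the cutting subunits are exchanged for those of the immunoproteasome, which favours peptides for class I antigen presentation. In muscle the ubiquitin and proteasome system is known for the breakdown of contractile proteins during wasting.

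The members divided into 14 subunits of the constitutive 20S core, 3 of the immunoproteasome (Psmb8, Psmb9 and Psmb10), 17 of the 19S regulator, 3 chaperones of its assembly, 3 activators and the tissue-restricted Psma8 and Psmb11. The 31 subunits of the constitutive core and the 19S regulator were all bright, with signals from percentile 90.1 (Psmd13) to percentile 99.0 (Psma6) of all probe sets. Signals are MAS5 intensities in arbitrary units on a linear scale, whose median over all probe sets was 63.6 on the Control, 67.4 on the HF and 68.0 on the HF+SFC array. Probe sets bind with different strength, and the level of a gene was therefore set only against its own level on another array. The tissue label was checked against its markers: creatine kinase Ckm, actin Acta1, myosin Myh4, troponin Tnnt3, myoglobin Mb and parvalbumin Pvalb all read at least 37327 on every array, while the liver genes Alb and Apoa1 read at most 101 and 6.54.

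**Figure D1:**
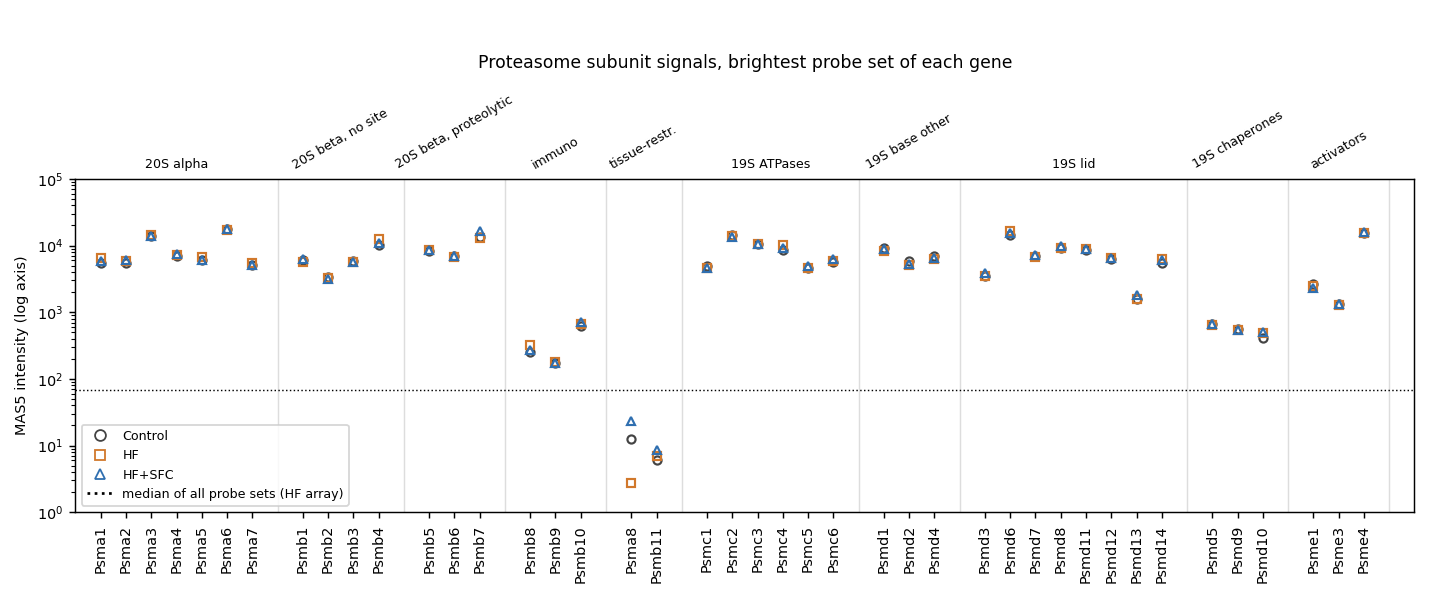
MAS5 intensity (log axis) of the 42 proteasome subunit genes on the Control (circles), HF (squares) and HF+SFC (triangles) arrays, 1 array of pooled samples each, ordered by part of the complex. The 3 symbols of a gene nearly coincide for the 20S core and the 19S regulator, and spread widely only for Psma8, far below the dotted line, the HF array's median over all probe sets (67.4).

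The promoters of the immunoproteasome genes and of a pair of their constitutive counterparts are shown because the comparison of these subunits runs through the results. The windows run from 250 bases before to 50 bases after the annotated start, 5′ to 3′ on the strand of the gene, and were taken from RefSeq (GRCm38.p6), where 35 of the 42 members had a window, 37 in all. Psma8, Psmb1, Psmb2, Psmb7, Psmc3, Psmd3 and Psmd7 had none. Capitals mark the gamma-activated site TTCNNNGAA, the antioxidant response element core TGACNNNGC and the CCAAT box, each searched on both strands. Psmb8 lies at chr17:34197945-34198244 (+), Psmb9 at chr17:34187281-34187580 (-), Psmb10 at chr8:105938343-105938642 (-), Psmb5 at chr14:54617946-54618245 (-) and Psmb6 at chr11:70525107-70525406 (+).
Psmb8: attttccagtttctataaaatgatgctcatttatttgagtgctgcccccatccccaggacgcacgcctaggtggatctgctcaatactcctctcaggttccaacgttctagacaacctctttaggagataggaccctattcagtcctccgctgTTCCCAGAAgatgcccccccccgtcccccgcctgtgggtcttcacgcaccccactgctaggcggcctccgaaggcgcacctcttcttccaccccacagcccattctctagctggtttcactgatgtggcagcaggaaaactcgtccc
Psmb9: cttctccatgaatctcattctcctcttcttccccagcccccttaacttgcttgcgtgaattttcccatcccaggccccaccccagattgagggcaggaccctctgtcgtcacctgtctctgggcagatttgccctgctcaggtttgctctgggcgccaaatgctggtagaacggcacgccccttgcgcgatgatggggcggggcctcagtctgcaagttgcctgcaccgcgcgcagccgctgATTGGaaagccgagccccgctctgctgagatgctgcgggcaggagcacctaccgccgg
Psmb10: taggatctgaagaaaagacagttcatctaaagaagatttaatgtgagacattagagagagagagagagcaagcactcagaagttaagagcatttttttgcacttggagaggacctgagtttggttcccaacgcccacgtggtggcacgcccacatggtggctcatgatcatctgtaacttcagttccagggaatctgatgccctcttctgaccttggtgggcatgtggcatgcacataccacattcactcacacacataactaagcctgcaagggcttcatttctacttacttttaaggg
Psmb5: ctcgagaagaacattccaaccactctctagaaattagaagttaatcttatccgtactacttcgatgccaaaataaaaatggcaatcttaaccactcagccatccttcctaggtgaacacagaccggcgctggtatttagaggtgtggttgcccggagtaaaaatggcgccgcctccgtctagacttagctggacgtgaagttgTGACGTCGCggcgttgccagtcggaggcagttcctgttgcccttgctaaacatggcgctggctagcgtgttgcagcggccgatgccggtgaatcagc
Psmb6: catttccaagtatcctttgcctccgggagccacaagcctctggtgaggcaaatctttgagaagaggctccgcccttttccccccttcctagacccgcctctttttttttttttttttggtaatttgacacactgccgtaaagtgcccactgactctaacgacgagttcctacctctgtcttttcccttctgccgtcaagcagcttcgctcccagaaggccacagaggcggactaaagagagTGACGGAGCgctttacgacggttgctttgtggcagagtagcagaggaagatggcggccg

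The window of Psmb8 held TTCNNNGAA from base -97 to base -89 before the start, letters that 8.30% of 32851 promoter windows of this length hold. That of Psmb9 held the CCAAT box on the reverse strand from base -8 to base -4, as 37.4% of all windows do on either strand. The windows of Psmb5 and Psmb6 each held TGACNNNGC, from base -47 to base -39 and from base -9 to base -1, a string found in 12.4% of all windows. Among the 27 windows of the constitutive core and 19S genes, TGACNNNGC occurred in 4 (14.8%), the CCAAT box in 10 (37.0%) and the GC box GGGCGG, not capitalised above, in 15 (55.6%), against 35.7% of all windows for the GC box. The interferon-stimulated response element, searched as GAAA, any 2 bases and GAAA, was in none of the 3 immunoproteasome windows and in 3.44% of all, and it occurred in those of Psmb3, Psmd4, Psmd9 and Psme1. That of Psmb10 held none of these motifs, and none of the capitalised strings overlapped another. The window of Psmb9 shared 275 bases with that of its neighbour Tap1 on the opposite strand, a gene of the peptide transporter for antigen presentation.

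The first comparison asks how the high-fat diet differed from the control diet. The constitutive 20S core and the 19S regulator read nearly the same on both arrays. Of the 31 subunits, 21 had log2 ratios of HF to Control within 0.1 of 0, and the furthest were Psmb4 at 0.29 (1.22-fold) and Psmd2 at -0.22 (0.861-fold). The median log2 ratio was 0.05 for the 14 core subunits (8 higher, 6 lower) and -0.02 for the 17 subunits of the 19S regulator (8 higher, 9 lower), against 0.01 over all genes and -0.03 over 2816 genes at least as bright as the dimmest of the 31. Of all genes 50.7% were higher and 49.3% lower in HF, and of 6708 genes above the 75th percentile of signal, called bright genes here, 43.8% and 56.1%. These small medians depended on the scaling. With each array centred on its median they were -0.03 for the core (4 higher, 10 lower) and -0.10 for the 19S regulator (3 higher, 14 lower), where the median of all genes was -0.08. With arrays centred on the 2816 genes of like brightness they were 0.08 (8 higher, 6 lower) and 0.01 (12 higher, 5 lower).

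Over all 42 members, 21 were higher and 21 lower in HF than in Control, at a median log2 ratio of -0.003. None was at least 1.5-fold higher on its brightest probe set, as 17% of all genes and 1.52% of the bright genes were. A single member, Psma8, was at least 1.5-fold lower, as 12.2% of all genes and 1.07% of the bright genes were. Centring on array medians gave 10 higher and 32 lower, and centring on the genes of like brightness 28 higher and 14 lower.

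The second comparison asks how iron added to the high-fat diet differed from the high-fat diet alone. The core again had no common direction, with 7 subunits higher in HF+SFC than in HF, 7 lower and a median log2 ratio of 0.01, where 51.4% of all genes were higher and 48.6% lower and 53.7% and 46.3% of the bright genes. In the 19S regulator 10 subunits were higher and 7 lower, at a median of 0.03, equal at 2 decimals to the 0.03 of genes of like brightness, against 0.01 over all genes. Of the 31 subunits, 20 lay within 0.1 of 0 and 29 within 0.2. The exceptions were Psmb7 at 0.36 (1.28-fold) and Psmd13 at 0.20 (1.15-fold). None of the 42 members was at least 1.5-fold lower, against 13.5% of all genes and 0.641% of the bright ones, and only Psma8 was at least 1.5-fold higher on its brightest probe set, against 13.7% and 0.298%. Both comparisons use the HF array, so a high or low reading there enters each with opposite sign.

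Between HF+SFC and Control, 29 members were higher and 13 lower in HF+SFC, at a median log2 ratio of 0.05. Of all genes 52.4% were higher and 47.6% lower, and of the bright genes 49% and 51%. The median was 0.03 for the core (10 higher, 4 lower) and 0.07 for the 19S regulator (11 higher, 6 lower). All 3 medians turned negative with arrays centred on their medians, at -0.04 for the members (16 higher, 26 lower), -0.07 for the core (5 higher, 9 lower) and -0.03 for the 19S regulator (7 higher, 10 lower). With quantile normalization 7 core subunits were higher and 7 lower. With arrays centred on the genes of like brightness, 35 members were higher and 7 lower, 12 and 2 of them in the core and 13 and 4 in the 19S regulator. Again Psma8 alone was at least 1.5-fold higher, against 16.5% of all genes and 0.939% of the bright ones, and no member was at least 1.5-fold lower, against 12.4% and 1.04%.

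**Figure D2:**
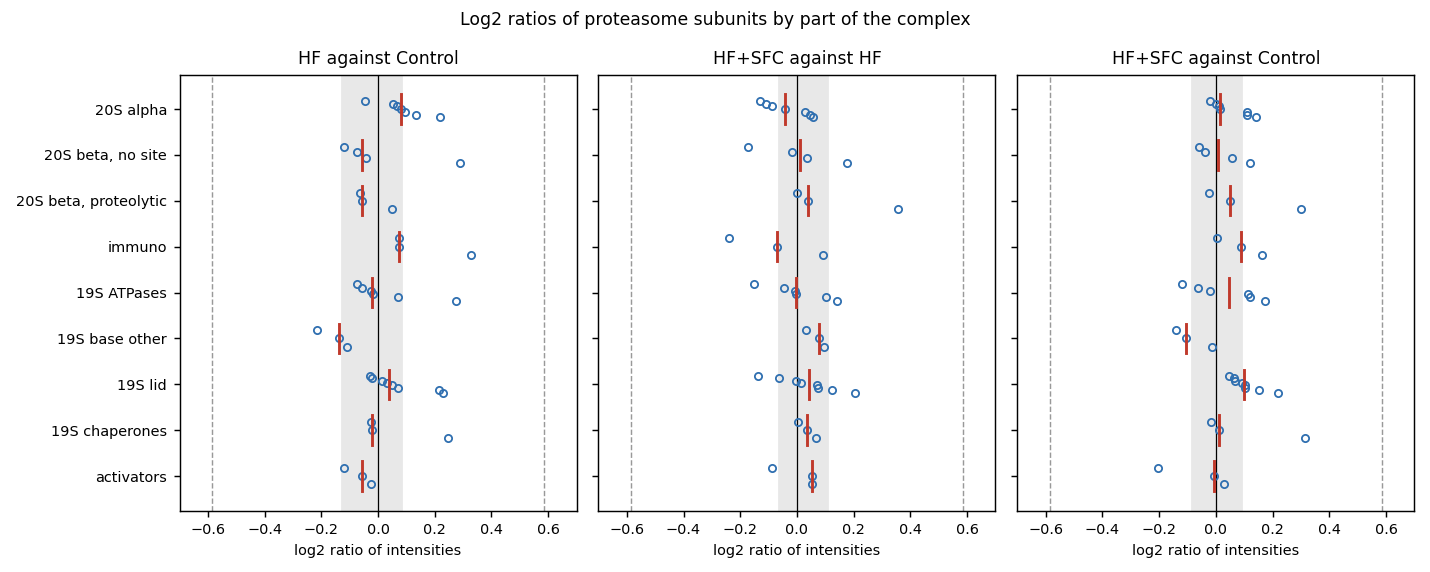
Log2 ratio of MAS5 intensities of each subunit (circles, brightest probe set) by part of the complex in the 3 comparisons, 1 array of pooled samples per group, without Psma8 and Psmb11. Red lines are medians, grey bands the middle 50% of 2816 genes of like brightness and dashed lines 1.5-fold, which no subunit drawn reaches.

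With no replicates, the spread between probe sets of 1 gene was used as a rough scale for these differences. Probe sets of a gene are read on the same arrays, so this spread holds no variation between mice, pools or arrays. It is also the spread of a difference between ratios, while single ratios were set against it. In 2458 genes a second probe set also exceeded the 75th percentile of signal, and its log2 ratio and that of the brightest differed with an SD of 0.26 in HF against Control, 0.23 in HF+SFC against HF and 0.22 in HF+SFC against Control. Of the 31 subunits, 2 lay beyond that SD in HF against Control (Psmb4 and Psmc4), 1 in HF+SFC against HF (Psmb7) and 2 in HF+SFC against Control (Psmb7 and Psmd13). The shares of 6.45%, 3.23% and 6.45% stood beside 14.3%, 9.27% and 14.7% of the 2816 genes of like brightness. Those genes share only a floor with the subunits, that of Psmd13 at percentile 90.1. The next dimmest subunit, Psmb2, lay at percentile 94.3. Brightness was thus not matched, and a lower share or span of the subunits cannot be read as steadiness. The ratio of a subunit's highest to its lowest signal over the 3 arrays had a median of 1.09 and a range of 1.01 to 1.28, against a median of 1.12 for genes of like brightness. It was at most 1.3 for all 31 subunits and for 92.6% of those genes.

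In the alpha ring, whose tails close the entrance of the barrel, 6 of 7 subunits were higher in HF than in Control (3 of 7 with arrays centred on their medians), at a median log2 ratio of 0.08. In HF+SFC against HF 4 of 7 were lower (5 after quantile normalization), at a median of -0.04. Psma1 had 5518 (Control), 6419.7 (HF) and 5953 (HF+SFC), Control lowest and HF highest. Psma5 had 6143, 6734 and 6148 in the same order of groups, so that Control and HF+SFC nearly coincided. Its next brightest probe set gave the same order for HF, with 2917, 3654 and 3329. Psma3 and Psma7 also read highest in HF on their brightest probe sets. Psma3 had 13991, 14529 and 14118, and Psma7 had 5157, 5403.5 and 5087. A second bright probe set of Psma7 read 3901, 3995 and 4019.9, highest in HF+SFC. Psma2 read 5495 (Control), 5871 (HF) and 6060.3 (HF+SFC), and Psma4 read 6864, 7259 and 7398. Both were highest in HF+SFC. Psma6 was the alpha subunit lower in HF, with 17692 (Control), 17152.5 (HF) and 17829.5 (HF+SFC), and a second bright probe set had 9715, 9689 and 9965.

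Among the beta subunits without a cutting site, Psmb1, Psmb2 and Psmb3 were lower in HF than in Control and Psmb4 was higher. Psmb1 had 6135 (Control), 5639 (HF) and 6375.5 (HF+SFC). Psmb2 had 3327, 3231 and 3194, and was lowest in HF+SFC. Psmb3 had 5873, 5583 and 5723, and its second probe set, with 3511, 2959 and 3744, had the same lowest array. Psmb4 had 10129 (Control), 12384 (HF) and 10998 (HF+SFC) on its brightest probe set. Its other probe set was as bright but read 10236, 10179 and 10448, a ratio of HF to Control of 0.994. The difference at Psmb4 thus rested on 1 of a pair of bright probe sets.

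The cutting subunits of the constitutive core are Psmb5, Psmb6 and Psmb7, which cleave after hydrophobic, acidic and basic residues. Psmb5 had 8274 (Control), 8565 (HF) and 8557 (HF+SFC), a span of 1.04-fold. Psmb6 had 7039.7, 6736 and 6917, a span of 1.05-fold. Both therefore read nearly the same on all arrays. Psmb7 had 13291, 12792 and 16365, so that HF+SFC stood above both other arrays, at 1.28-fold of HF and 1.23-fold of Control. Among the 31 core and 19S subunits, its ratio of HF+SFC to HF was the highest on brightest probe sets. Psmb7 was measured by 1 probe set, and no other could be set beside it.

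All 3 immunoproteasome subunits were higher in HF than in Control by small amounts, though only Psmb8 was with arrays centred on their medians. Their probe sets lay at percentiles 65.3 to 81.3 of signal. Psmb8, the counterpart of Psmb5, had 253 (Control), 317 (HF) and 269 (HF+SFC). It was thus 1.25-fold higher in HF than in Control (log2 ratio 0.33), and HF+SFC was 0.847-fold of HF (-0.24). Psmb9, the counterpart of Psmb6, had 173, 182 and 174. The order of the arrays was that of Psmb8, but the span was 1.05-fold. Psmb10, the counterpart of Psmb7, had 628, 661 and 704, with HF+SFC highest. The median log2 ratio of the 3 genes was 0.07 in HF against Control and -0.07 in HF+SFC against HF. With arrays centred on their medians the first became -0.01. A dim second probe set of Psmb8 read 6.57, 47.3 and 25.6.

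The difference between an immunoproteasome subunit and its constitutive counterpart does not depend on the scaling factor of the arrays, which it cancels. In HF against Control the log2 ratio of the immunoproteasome subunit exceeded that of its counterpart by 0.28 for Psmb8 over Psmb5, 0.14 for Psmb9 over Psmb6 and 0.13 for Psmb10 over Psmb7. In HF+SFC against HF all 3 differences were negative, at -0.24, -0.11 and -0.26. In the last of these pairs Psmb7 stood at 0.36 and Psmb10 at 0.09. In HF+SFC against Control the differences were 0.04, 0.03 and -0.14. Between probe sets of 1 gene above the 75th percentile of signal, the SD was 0.26, 0.23 and 0.22 in these comparisons. Within it lay the differences of Psmb9 in all 3 comparisons and that of Psmb8 in HF+SFC against Control. Those of Psmb10 lay within it except in HF+SFC against HF. The probe sets of Psmb8 and Psmb9, at percentiles 71.1 and 65.3, were dimmer than those that gave this SD.

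Genes of class I antigen presentation, which load peptides made by the proteasome, were higher in HF than in Control in 8 of 10 cases, at a median log2 ratio of 0.18 against 0.01 over all genes (0.10, and 7 of 10 higher, with arrays centred on their medians). They were lower in HF+SFC than in HF in 7 of 10, at a median of -0.12 against 0.01. The class I molecule H2-D1 had 2434 (Control), 3200.4 (HF) and 2752 (HF+SFC), and its partner B2m had 8385, 10670.2 and 9104. Other bright probe sets of both genes also put HF highest, but HF+SFC below Control. Those of H2-D1 read 2362, 2664 and 2341, then 585, 725 and 468, and then 431, 510 and 360. That of B2m read 5815, 7484 and 5733. The transporter gene Tap1, whose promoter window overlaps that of Psmb9, had 129 (Control), 159 (HF) and 93.6 (HF+SFC) and was the gene of the list past 1.5-fold, at 0.589-fold in HF+SFC against HF. The 3 dimmer probe sets of Tap1 read at most 32.6 and gave ratios of 0.580, 1.22 and 1.61 in that comparison. Erap1, a peptide-trimming protease, had 376, 355 and 284, and the class I activator Nlrc5 had 81.4, 77.3 and 98.6.

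Of 14 interferon-responsive genes measured, HF exceeded Control in 8 and was below it in 6, at a median log2 ratio of 0.09, and HF+SFC exceeded HF in 5 and was below it in 9, at a median of -0.14. With arrays centred on their medians or quantile normalized, 7 were higher and 7 lower in HF than in Control. The chemokine genes Cxcl10 (4.11, 132 and 50.4) and Cxcl9 (37.6, 109 and 107) were highest in HF. Both rose from signals below the array median in Control, the first from far below it. A dimmer probe set of Cxcl9 read 29.8, 36.8 and 20.4, lowest in HF+SFC. The GTPase gene Iigp1 had 542, 805 and 472, and HF+SFC was 0.587-fold of HF. Irf9 had 220.3, 132 and 170.3, lowest in HF, and Ifit1 had 181, 155 and 109, lowest in HF+SFC.

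Leukocyte markers were higher in the same comparison as the immunoproteasome. Of 12 listed 11 were measured, and 9 of these were higher in HF against Control, at a median log2 ratio of 0.31. Of all genes 50.7% were higher, at a median of 0.01. In HF+SFC against HF 4 of the markers were higher and 7 lower, at a median of -0.06. Their summed signal was 3573 (Control), 4452 (HF) and 4270.3 (HF+SFC), and none was at 0. The common leukocyte antigen Ptprc had 119, 159.9 and 161, and the macrophage marker Adgre1 had 214, 266 and 249.7. The markers lower in HF than in Control were Itgam, with 38.3, 26.8 and 46.1, and Fcer1g, with 173, 172 and 138. Markers of adipocytes had summed signals of 22938, 32800.1 and 29459, those of fibroblasts and matrix 31189, 39249.5 and 38909, and those of skeletal muscle 288574, 263244 and 311559. The adipocyte sum, of 5 measured markers of 7 listed, was mostly that of Fabp4, with 21626, 26497 and 25306. All 5 were higher in HF than in Control, at a median log2 ratio of 2.12. In HF+SFC against HF 1 was higher and 4 lower, at a median of -0.61. The part of these cells in the immunoproteasome signals was not tested.

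**Figure D3:**
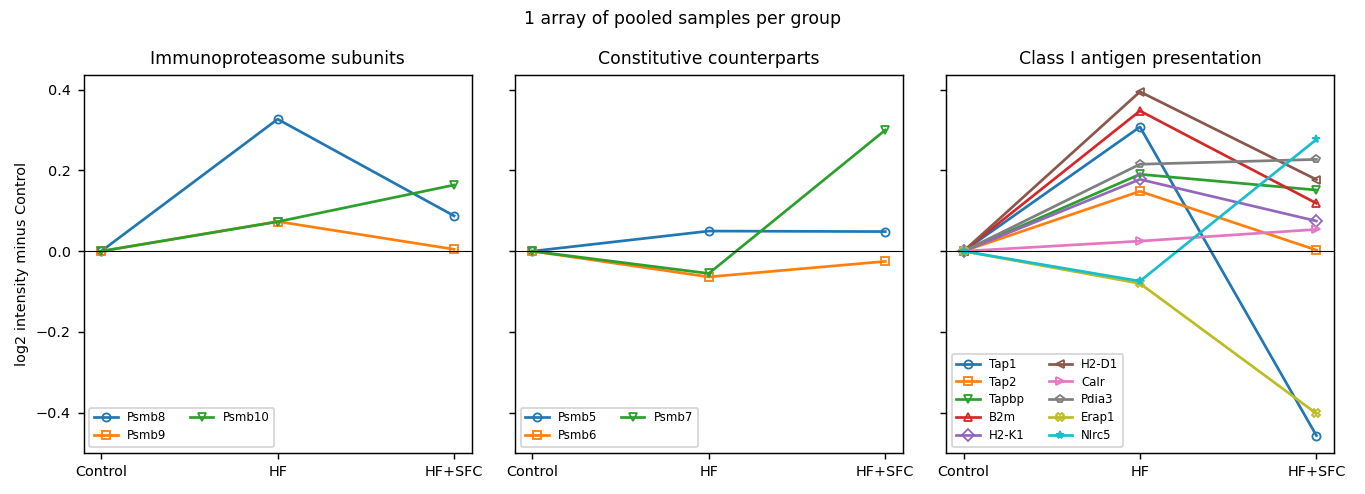
Log2 MAS5 intensity minus that of the Control array for the immunoproteasome subunits, their constitutive counterparts and 10 genes of class I antigen presentation on the 3 arrays, 1 array of pooled samples per group. Psmb8 stands at 0.33 in HF and 0.09 in HF+SFC, Psmb7 at 0.30 in HF+SFC, and Tap1 at 0.31 in HF and -0.46 in HF+SFC.

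In the 19S regulator, the ring of ATPases Psmc1 to Psmc6 unfolds proteins and opens the core. In HF, 4 of them read below Control and 2 above it, at a median log2 ratio of -0.02 (5 lower with arrays centred on their medians, 2 lower with arrays centred on genes of like brightness). Psmc4 was the ATPase furthest from 0, with 8467 (Control), 10237 (HF) and 9214 (HF+SFC). HF was highest also on its second probe set, which had 3393, 3559 and 3232, though HF+SFC was there below Control. Psmc6 had 5614, 5892 and 6325, Control lowest. Its other bright probe sets put HF highest, with 4017, 4547 and 3961 on one and 603, 995 and 722 on the other, and the last was 1.65-fold higher in HF than in Control.

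The remaining ATPases spanned at most 1.10-fold. Psmc1 had 4869 (Control), 4679 (HF) and 4660.5 (HF+SFC). Psmc2 had 14563, 13848 and 13405.5 on its brightest probe set, and 8943, 8034 and 8332 on the next. Control was the highest array for both genes. Psmc3 varied least of all 31 subunits on brightest probe sets, with 10673, 10534 and 10515, a span of 1.01-fold. Psmc5 had 4612, 4528 and 4988, HF+SFC highest.

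The scaffold subunits Psmd1 and Psmd2 and the ubiquitin receptor Psmd4 were each lowest in HF and highest in Control, except that Psmd1 was above Control in HF+SFC with arrays centred on genes of like brightness. Psmd2 had 5859 (Control), 5044 (HF) and 5319 (HF+SFC), the lowest ratio of HF to Control among the 31 subunits at 0.861. Psmd4 had 6965, 6337 and 6474. Psmd1 had 9084, 8422 and 8988, with HF+SFC close to Control. The median log2 ratio of the 3 genes was -0.14 in HF against Control and 0.08 in HF+SFC against HF. A second bright probe set of Psmd4 read 5611, 5529 and 4828, lowest in HF+SFC.

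The lid removes ubiquitin from the substrate. The 8 members that belong to it were all higher in HF+SFC than in Control on their brightest probe sets. Their median log2 ratio was 0.10, with a range of 0.05 (Psmd7) to 0.22 (Psmd13). With arrays centred on their medians, however, 4 were higher and 4 lower. Psmd14, the deubiquitinating enzyme of the lid, had 5437 (Control), 6313 (HF) and 6047 (HF+SFC), so that Control was lowest. Psmd6 had 14258, 16719 and 15194, but a second bright probe set had 10902, 11137 and 11430.4. Psmd13 had 1583, 1597 and 1840.4, so that HF+SFC stood above the other arrays. Its second bright probe set gave the opposite order, with 1244, 1161 and 1091. The other lid subunits spanned at most 1.09-fold. Psmd3 had 3553, 3502 and 3818, and Psmd7 had 6981, 6843 and 7204. Psmd8 had 9034, 9239 and 9711, and Psmd12 had 6287, 6501 and 6569. These 4 were all highest in HF+SFC. Psmd11, whose 8 probe sets were the most of any member, had 8433, 8853 and 8837 on the brightest, and its 4 bright probe sets gave log2 ratios of HF to Control from -0.23 to 0.07. Their log2 ratios of HF+SFC to Control ran from -0.14 to 0.07, and only that of the brightest was above 0.

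The chaperones Psmd5, Psmd9 and Psmd10 help to assemble the base of the 19S regulator and are not part of the finished complex. Psmd5 had 659 (Control), 648 (HF) and 664 (HF+SFC), and Psmd9 had 557, 548 and 550.0. Both stayed within a span of 1.03-fold. Psmd10, also known as gankyrin, had 410.1, 486 and 509.8, and its ratio of HF+SFC to Control of 1.24 was the highest among members above the 75th percentile of signal. Among the activators, which bind the core in place of the 19S regulator, Psme1 had 2689, 2476 and 2331, the lowest ratio of HF+SFC to Control among those members at 0.867. It encodes a subunit of the activator PA28 that interferon induces. The nuclear activator gene Psme3 had 1316, 1264 and 1311, and Psme4, which encodes the activator PA200, had 15418, 15171.5 and 15731. Both varied by no more than 1.04-fold on these probe sets. The other bright probe sets of Psme4 read 11498, 10807.3 and 10806.4 on one and 3555, 4063 and 3991 on the other, Control highest on the first and lowest on the second. A second bright probe set of Psme3 read 512, 514 and 494.

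Psma8 and Psmb11, core subunits known from the testis and the thymus respectively, read far below the array medians. Psma8 had 12.6 (Control), 2.77 (HF) and 23.7 (HF+SFC), and Psmb11 had 6.01, 7.02 and 8.58. Psma8, the member past 1.5-fold on its brightest probe set, was thus dim on every array. Among the other probe sets of members, ratios past 1.5-fold were mostly those of dim ones. Among 20 other probe sets dimmer than the median, 14 differed at least 1.5-fold between HF and Control and 13 between HF+SFC and HF. Of 8 between the median and the 75th percentile, 5 and 2 did. Of 18 above the 75th percentile, 1 did in the first comparison, that of Psmc6, and none in the second. On any probe set, 10 of the 42 members (23.8%) were at least 1.5-fold higher in HF against Control and 8 (19.05%) lower, against 30.5% and 24% of all genes and 16.7% and 13.9% of the bright genes counted the same way. For HF+SFC against HF these were 4 (9.52%) and 8 (19.05%), against 26.4% and 26% of all and 14.5% and 14.1% of the bright genes. For HF+SFC against Control they were 7 (16.7%) and 9 (21.4%), against 30% and 24.4% and against 16.2% and 13.7%. Each of these shares lay below that of all genes. Of the 42 members, however, 38 were bright genes. Against the bright genes every share was larger, except that of members higher in HF+SFC against HF. Among 14 members with several probe sets above the 75th percentile, all such probe sets had the same direction for 9 in HF against Control, 4 in HF+SFC against HF and 7 in HF+SFC against Control. Among all 2458 genes with several such probe sets, this was so for 52.8%, 46.2% and 53.9%.

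**Figure D4:**
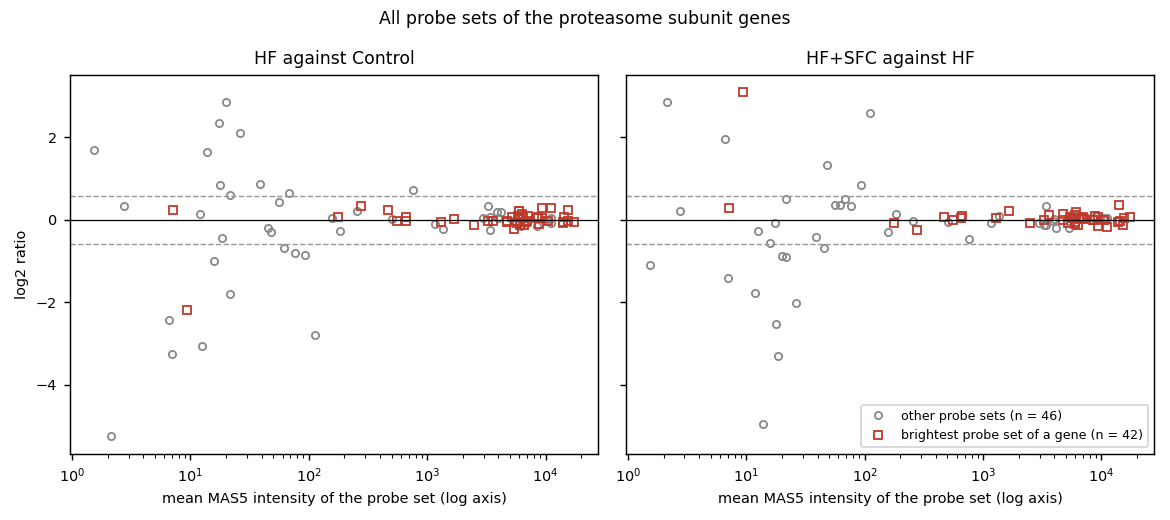
Log2 ratio against mean MAS5 intensity over the 3 arrays (log axis) for all 88 probe sets of the 42 genes, 1 array of pooled samples per group, with the brightest probe set of each gene as squares, the 46 others as circles and 1.5-fold as dashed lines. Ratios spread to -5.24 and 3.10 on the log2 scale at low intensity, while among bright probe sets a single one, of Psmc6 at 0.72 in HF against Control, passes 1.5-fold.

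Partners of the proteasome outside the rule were examined with the members. Of 16 listed assembly factors, inhibitors, receptors and deubiquitinating enzymes 14 were measured, and HF exceeded Control in 6 and was below it in 8 (median log2 ratio -0.04), and HF+SFC exceeded HF in 9 and was below it in 5 (0.05). None reached 1.5-fold. With arrays centred on their medians, 4 were higher and 10 lower in HF than in Control. The assembly chaperone genes Psmg2, with 2355 (Control), 1921 (HF) and 1981 (HF+SFC), and Psmg3, with 624, 527 and 524, were highest in Control. Pomp, which guides formation of the core, had 7325, 6635 and 7243, lowest in HF. The inhibitor gene Psmf1 had 362, 517 and 448 on its brightest probe set, and 426, 393 and 443 on another, an opposite order for HF. Uchl5, a deubiquitinating enzyme bound to the 19S regulator, had 2036, 2457 and 2571.

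Genes that deliver ubiquitinated proteins to the proteasome were lower in HF than in Control in 7 of 9 cases (8 with arrays centred on their medians), at a median log2 ratio of -0.19 against 0.01 over all genes and a range of -0.16 to -0.28 under the other scalings. In HF+SFC against HF 6 of 9 were higher, at a median of 0.08. Nploc4 and Ufd1, adaptors of the unfolding ATPase Vcp, had 1113 (Control), 813 (HF) and 979.7 (HF+SFC), and 1759, 1389.7 and 1470.5. Vcp had 13834, 12811 and 14086. The shuttle factor gene Rad23b had 4399, 4436 and 3901, and the ubiquitin-activating enzyme gene Uba6 had 543, 623 and 659. None reached 1.5-fold.

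Of 10 genes for the transcriptional control of subunits, 6 were lower in HF than in Control (8 with arrays centred on their medians) and 7 had HF+SFC below HF, at median log2 ratios of -0.04 and -0.07. Nfe2l1, the factor known to induce subunit genes when the proteasome is inhibited, had 7772 (Control), 7319.7 (HF) and 7227 (HF+SFC). Nfya, which binds the CCAAT box, had 191, 167 and 138, and Maff had 142, 171 and 125. Of 9 muscle ubiquitin ligases measured, 7 were lower in HF than in Control, also with arrays centred on their medians. The median log2 ratio of the ligases was -0.10, against 0.01 over all genes. Lower in HF were 49.3% of all genes and 56.1% of the bright genes. Fbxo32, known as atrogin-1, had 13711, 8834 and 9315. At 0.644-fold it was the gene of the list past 1.5-fold, where 12.2% of all and 1.07% of the bright genes were at least 1.5-fold lower. Its other probe sets gave 0.626 and 0.668. The sarcomere ligase gene Trim63 had 22109, 19731 and 17039. Mdm2 had 1485, 1709 and 1356, highest in HF.

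Signs of RNA integrity differed between the arrays for beta-actin and hardly for Gapdh. Signal of control probe sets at the 3′ end relative to the 5′ end was 1.09 (Control), 1.52 (HF) and 1.15 (HF+SFC) for beta-actin and 0.842, 0.832 and 0.820 for Gapdh. The beta-actin ratio was thus highest on the HF array. On that array 12 of the 42 members (28.6%) read highest and 16 (38.1%) lowest, against 33.3% and 34.0% of all genes and 29.8% and 39.6% of the bright genes. The part of RNA integrity in the members' signals was not tested.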

How the data were processed

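Gastrocnemius RNA of 3 groups was measured on Affymetrix GeneChip Mouse Genome 430 2.0 arrays, 1 array of pooled samples per group. The deposited values are linear MAS5 intensities. The submitters' processing notes name MAS5, whose version is not given in the sources used here. With 2% of values trimmed from either end, each array averaged 500.004. No detection calls were used.

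Of 45101 probe sets, 34958 had 1 gene symbol in the array annotation and 932 several. The latter were not assigned, which left out the Psme2 probe set. Log2 ratios were taken without offset, from the brightest probe set per gene. As each group had 1 array, no test was run. The number of arrays limits the precision. Members and lists were chosen with earlier results of these data known. All members could be named, and of other lists the highest and lowest ratios above the median signal and genes past 1.5-fold, plus markers and interferon-responsive or leukocyte genes beside the immunoproteasome. B2m, Vcp, Nfe2l1 and Trim63 were added for their roles, after their values were seen. Alternatives were quantile normalization, median centring, an offset of 50, the other probe set rules and a 2-fold threshold. Steps were tested on simulated data. Python 3.11.15, numpy 2.4.6, pandas 2.3.3 and matplotlib 3.10.9 were used.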

Additional observations from a re-analysis of the deposited data

How the results depend on the processing

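The medians of the member lists lay near 0 and their signs depended on the processing. A direction of a list given without a named scaling is that of the deposited values. A sign change was counted for any list median, and a shift was counted when it exceeded the SD between bright probe sets of 1 gene. Of 120 medians recomputed under the alternatives, 91 kept their sign and moved by less than that SD, 3 moved further and 26 changed sign. In HF against Control, the median of all members, -0.003, became 0.0045 after quantile normalization, 0.040 with the mean of all probe sets, 0.019 on the next brightest probe set and 0.030 with arrays centred on genes of like brightness. That of the core, 0.05, became -0.031 with arrays centred on their medians, -0.0081 without probe sets ending in _s_at, _x_at or _a_at, -0.049 with the mean of all probe sets and -0.0060 on the next brightest. That of the 19S regulator, -0.02, became 0.048 with the mean of all probe sets, 0.050 on the next brightest and 0.014 with arrays centred on genes of like brightness. That of the immunoproteasome became -0.0092 with arrays centred on their medians and 2.85 on the next brightest probe set, which is that of Psmb8 alone. In HF+SFC against HF, that of all members became -0.0020 with the mean of all probe sets and -0.041 on the next brightest. That of the core became -0.00046 with arrays centred on their medians, and that of the 19S regulator -0.050 with the mean of all probe sets and -0.11 on the next brightest. That of the immunoproteasome became 0.011 without the probe sets of those endings, 0.091 with the mean of probe sets above the 75th percentile, which leaves Psmb10, and -0.88 on the next brightest. In HF+SFC against Control, centring on array medians gave -0.044 for all members, -0.066 for the core, -0.0088 for the immunoproteasome and -0.029 for the 19S regulator. On the next brightest probe set the values were -0.015 for all members, -0.054 for the 19S regulator and 1.96 for the immunoproteasome, and without the probe sets of those endings -0.018 for the 19S regulator. Centring on genes of like brightness and the mean of probe sets above the 75th percentile were chosen after seeing the data.

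Of 333 recomputed log2 ratios of 12 named members, 35 changed sign. In 5 of the 35 the reported ratio was beyond that SD, and besides these 5, 18 ratios moved by at least the SD. Psmb4 in HF against Control became -0.0081 on its other probe set, both as the next brightest and without the probe sets of those endings. Psmd13 in HF+SFC against Control became -0.88 without the probe sets of those endings, -0.077 with the mean of all probe sets and -0.19 on the next brightest. The value of -0.88 came from a dim probe set, with 57.5 (Control) and 31.2 (HF+SFC). By setting, 13 of 21 ratios changed sign on the next brightest probe set, 7 of 36 with the mean of all probe sets, 7 of 30 without the probe sets of those endings, 6 of 36 with median centring, and 1 each after quantile normalization and with the mean of probe sets above the 75th percentile. In HF against Control, Psma1 became -0.15 with the mean of all probe sets and -0.67 on the next brightest, and Psmd2 became 1.06 and 2.34. The single member past 1.5-fold in each comparison, Psma8, was lost, leaving 0, with the offset of 50 and when members below the median signal were left out, and in HF+SFC against Control at 2-fold. Without the probe sets of those endings, 2 members were higher and 2 lower in HF against Control, 2 and 2 in HF+SFC against HF, and 2 lower in HF+SFC against Control, of 36 members, where between 13.2% and 18.6% of 16593 genes were. With any probe set, the counts were 10 higher and 8 lower, 4 higher and 8 lower, and 7 higher and 9 lower, against 30.5% and 24%, 26.4% and 26%, and 30% and 24.4% of all genes. Of the bright genes these shares were 16.7% and 13.9%, 14.5% and 14.1%, and 16.2% and 13.7%. No replicate could be left out. No paired analysis was possible because each group has 1 array. Low signal limits the dim probe sets: in 3814 genes with a second probe set under the median signal, its log2 ratio of HF+SFC to HF and that of the brightest differed with an SD of 1.88.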

Other observations

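The gene Psme2, whose product forms the activator PA28 with that of Psme1, could not be counted with the members, since its probe set is annotated to both Psme2 and Psme2b. That probe set read 2027 (Control), 2111 (HF) and 1959 (HF+SFC), so that HF+SFC was 0.928-fold of HF. On the Psme1 probe set HF+SFC was 0.941-fold of HF and HF was 0.921-fold of Control, where the shared probe set gave 1.04-fold.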
